A study of Mus musculus with 4 samples.

Results

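Ribosomal protein genes were examined as a set of promoters that dividing cells keep highly active, in order to ask how often a SOX3 ChIP-seq peak lies at such a promoter. The members were the protein-coding genes of the GENCODE vM1 annotation with the symbol Rpl or Rps followed by a number and an optional A, X or L, together with Rplp0, Rplp1, Rplp2 and Rpsa. This gave 81 of 22367 protein-coding genes, of which 49 encode proteins of the large ribosomal subunit (3 of them in its stalk) and 32 proteins of the small subunit. The 10 Rps6k kinase genes, the 55 protein-coding entries with a -ps symbol and 4 other symbols (Rpl22l1, Rpl7l1, Rps19bp1 and Rps4y2) fell outside the rule.

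The ChIP used the antibody AF2569 (R&D), directed at human SOX3, on neural progenitor (NP) cells. These were made from the mouse embryonic stem cell line R1 by 4 days in N2B27, a serum-free medium with the N2 and B27 supplements. There was 1 group of 3 independent samples (replicates 1, 2 and 3), all from the same cell line and treatment, and 1 input sample without antibody, which served the authors as background and was not analysed here. The authors called peaks with MACS in each replicate separately at a p-value of 1e-05, and the deposited score of a peak is −log10 of that p-value multiplied by 10, so that 50 is the lowest score. There was no second condition, so shares of genes are given beside the share of all protein-coding genes, and no test between groups was possible.

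Ribosomal proteins are the protein part of the cytosolic ribosome, and every growing cell makes them in large and balanced amounts. Their promoters are usually GC-rich, and their mRNAs begin with a C and a run of pyrimidines, the 5′ terminal oligopyrimidine tract through which growth signals set their translation. Their introns often carry snoRNA genes, and mammalian genomes hold many processed pseudogenes of them, which are intron-less copies of their mRNAs. SOX3 is an HMG box factor of the SOXB1 group, expressed in neural progenitors, that binds short words such as ACAAT through the minor groove of DNA.

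The lists held 18816, 8096 and 40543 peaks in replicates 1, 2 and 3. They hold no read counts, so depth is unknown, and scores were compared only as a percentile within a list. Replicates 2 and 3 stood apart from the other pairs, in that 34.5% of the 7815 overlapping pairs of their peaks began at the same base, against 0.922% for replicates 1 and 2 and 1.63% for replicates 1 and 3. Of the 8 overlapping pairs of replicates 2 and 3 near ribosomal protein genes, 1 began at the same base. Of the 7 markers of NP cells checked (Nes, Sox1, Sox2, Sox3, Pax6, Vim and Fabp7), 6 were annotated, and 5, 3 and 3 of these had a peak in the gene or within 5000 bp in replicates 1, 2 and 3.

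Sequences from the NCBIM37 reference (mm9), written along the strand of the gene, show what lies under the peaks that were shared. The first is the central 300 bases of a stretch upstream of exon 1 of Rps19 that was covered by a peak of every replicate (chr7:25669005-25669304, + strand). Words for SOX factors (AACAAA or AACAAT or GACAAA or GACAAT or ACAAAA or ACAAAG or ACAATA or ACAATG) and the POU octamer (ATGCAAAT or ATGCTAAT), read on both strands, are in capitals.
Rps19: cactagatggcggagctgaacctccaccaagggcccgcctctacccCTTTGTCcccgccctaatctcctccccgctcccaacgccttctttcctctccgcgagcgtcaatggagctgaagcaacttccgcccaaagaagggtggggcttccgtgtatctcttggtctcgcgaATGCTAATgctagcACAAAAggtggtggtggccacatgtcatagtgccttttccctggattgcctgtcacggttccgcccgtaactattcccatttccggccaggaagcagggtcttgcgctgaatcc
These 300 bases held 4 of the SOX and POU words, of which GACAAA and ACAAAG overlap in the stretch CTTTGTC, read on the other strand.

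The next sequences are stretches inside genes that were covered in replicates 2 and 3 but not in replicate 1, with coding bases in capitals. They lie in exon 3 of 5 in Rpl27 (chr11:101304842-101304984, + strand) and in exon 4 of 5 in Rpl28 (chr7:4745656-4745840, + strand).
Rpl27: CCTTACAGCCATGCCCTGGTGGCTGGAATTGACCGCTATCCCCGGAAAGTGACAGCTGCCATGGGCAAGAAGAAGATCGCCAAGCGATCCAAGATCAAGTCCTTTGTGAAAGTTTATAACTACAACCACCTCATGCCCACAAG
Rpl28: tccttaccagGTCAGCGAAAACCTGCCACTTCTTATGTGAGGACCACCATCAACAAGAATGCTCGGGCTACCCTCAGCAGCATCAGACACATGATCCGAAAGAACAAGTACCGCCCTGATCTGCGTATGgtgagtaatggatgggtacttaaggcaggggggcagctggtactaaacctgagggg
In Rpl27 the shared stretch was coding over 100% of its length, and in Rpl28 over 64.3%.

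A gene was counted when the middle of a peak lay within 2000 bp of the start of any of its annotated transcripts. In replicate 1, 30 of the 81 ribosomal protein genes had such a peak, 37.0% (95% Wilson interval 27.3 to 47.9), against 20.4% of all protein-coding genes. In replicate 2 there were 10, 12.3% (6.85 to 21.3), against 6.23%. In replicate 3 there were 27, 33.3% (24.0 to 44.1), against 19.1%. The share of ribosomal protein genes was thus above the share of all genes in each of the 3 lists, and the intervals, which cover counting error only, lay above it in each. In replicate 2 this did not hold for most other choices: under 9 of 11 alternatives, such as the start of the gene record alone (8 members, 9.88% with an interval of 5.09 to 18.3, against 5.18%), the share of all genes lay inside the interval. Without the mostly multi-copy peaks, those with more than 50% of their sequence repeated elsewhere in the reference, 5 members remained in replicate 2, 6.17% (2.67 to 13.6) against 5.35%. In replicates 1 and 3 the share of all genes lay inside the interval under 2 of 11 alternatives each, and for the genes with a peak in all 3 replicates under 14 of 15.

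The replicates named partly different genes. A peak in all 3 replicates was found near 6 members, 7.41% (3.44 to 15.2), against 5.05% of all protein-coding genes, so that here the share of all genes lay inside the interval. A peak in at least 1 replicate was found near 43 members, 53.1% against 29.8%. Of these 43 genes, 15 had a peak only in replicate 1 (18.5% of the members, against 10.5% of all protein-coding genes), 10 only in replicate 3 (12.3% against 8.32%) and 12 in a pair of replicates. None had one only in replicate 2, where the share of all genes was 0.0939%. The remaining 38 members had no peak near a start in any list.

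Small-subunit genes had a peak more often than large-subunit genes in each replicate, a difference that was not tested. In replicates 1, 2 and 3, 15, 5 and 13 of the 32 small-subunit genes had one (46.9%, 15.6% and 40.6%), against 15, 5 and 14 of the 49 large-subunit genes (30.6%, 10.2% and 28.6%). In the stalk, the flexible arm that recruits elongation factors, Rplp0 had a peak in replicates 1 and 3, and of the 3 stalk genes 1 had none. The 5 paralogs with a symbol ending in l (Rpl3l, Rpl10l, Rpl36al, Rpl39l and Rps27l) had no peak in any replicate. Of all protein-coding genes 70.2% had none either, and 5 genes are too few to compare. The members have more annotated starts than other genes, with a median of 4 against 2, which gives them more positions at which a peak is counted.

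Other gene classes with broadly active promoters were set beside the ribosomal protein genes. Of 76 genes for mitochondrial ribosomal proteins, 36.8%, 5.26% and 26.3% had a peak in replicates 1, 2 and 3. Among 67 translation factor genes the shares were 31.3%, 8.96% and 29.9%. Proteasome subunit genes (41) had 19.5%, 7.32% and 14.6%, and genes for subunits of respiratory complex I (37) had 29.7%, 10.8% and 16.2%. The intervals of all 4 of these classes overlapped those of the ribosomal protein genes in every replicate. In the small classes of chaperonin subunits (9 genes) and cytosolic tRNA synthetases (17 genes) the counts were 3, 0 and 1 and 2, 0 and 4. Of the 8355 promoters of at least 60% GC, 29.6%, 8.11% and 23.4% had a peak. Among 1087 olfactory receptor genes, which NP cells are not known to use, the shares were 0.368%, 0.276% and 3.77%. The replication-dependent histone genes were at the other end, with 95.5%, 94% and 98.5% of 67 genes.

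**Figure D1:**
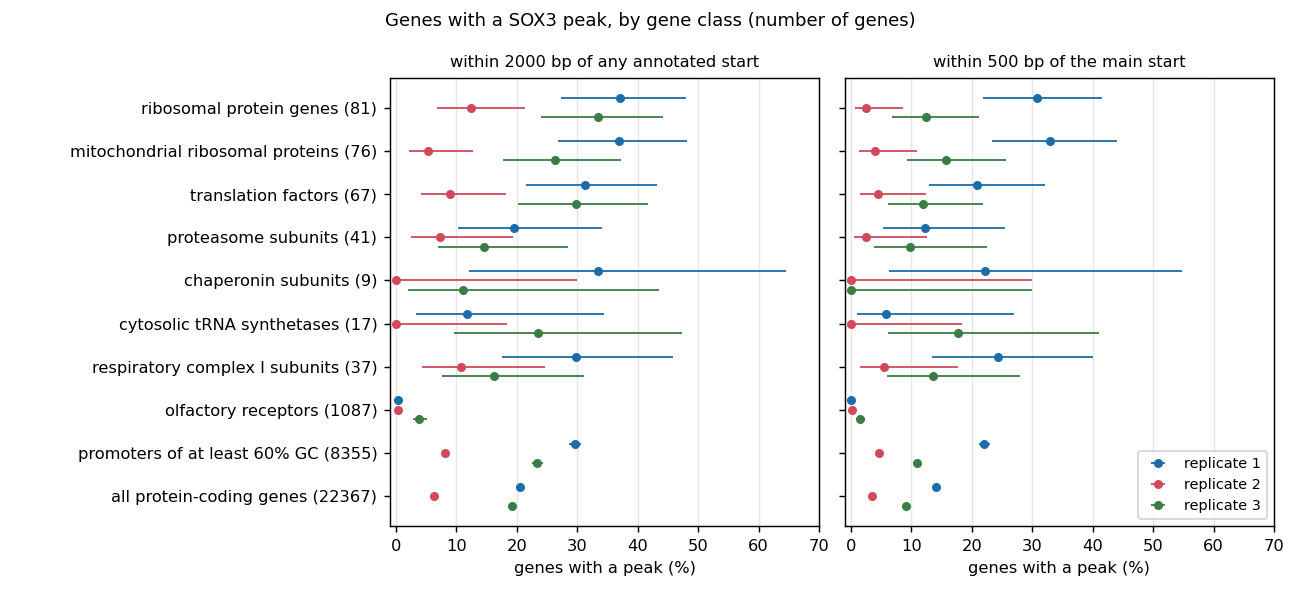
Share of genes with a peak (horizontal axis, percent) for ribosomal protein genes and other gene classes (rows, number of genes in brackets) in replicates 1, 2 and 3, with 95% Wilson intervals as lines; histone genes, all above 85%, are not drawn. At the left (within 2000 bp of any annotated start) ribosomal protein genes lie at 37.0%, 12.3% and 33.3%, and at the right (within 500 bp of the main start) at 30.9%, 2.47% and 12.3%.

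How much of the excess lay at a start depended on the starts used. Within 500 bp of any annotated start, 26, 7 and 19 members had a peak in replicates 1, 2 and 3 (32.1%, 8.64% and 23.5%, against 16.4%, 4.40% and 11.5% of all protein-coding genes). The share of members was above that of all genes in each list, but in replicate 2 the interval of the members, 4.25 to 16.8, held the share of all genes. A peak inside a gene can lie near such a start, as in Rpl27. The main start was taken as the start of the transcript with the most coding bases, a choice made after the peaks had been seen. Within 500 bp of it, replicate 1 had a peak at 25 members (30.9% against 14.1% of all protein-coding genes), replicate 2 at 2 (2.47% against 3.54%) and replicate 3 at 10 (12.3% against 9.07%). In all 3 replicates there were 2 such members, Rps29 among them, which is 2.47% against 2.75%. With both the narrow window and the main start, the share of members was above that of all genes in replicate 1, whereas in replicates 2 and 3 the share of all genes lay inside the interval of the members (0.680 to 8.56 and 6.85 to 21.3). With the main start and 2000 bp, the shares were 35.8%, 9.88% and 27.2%, against 18.0%, 5.12% and 15.3%, and the share of all genes lay just inside the interval in replicate 2 (5.09 to 18.3).

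Downstream peaks took a larger share of the peaks in replicates 2 and 3 than in replicate 1. In replicate 1, 28 of the 35 peaks within 2000 bp of a main start (80%) lay within 500 bp of it, at a median of 13.2 bp downstream, and 1 lay more than 500 bp downstream. In replicate 2, 2 of 8 peaks lay within 500 bp, 2 upstream and 4 downstream, between 1235 and 1526 bp. In replicate 3, 12 of 27 peaks (44.4%) lay within 500 bp and 13 (48.1%) downstream, between 925 and 1896 bp, with a median of 1365 bp. For all protein-coding genes the share within 500 bp was 70.9%, 63.7% and 53.8% in the 3 replicates, and the downstream share 13.5%, 15.2% and 22.3%.

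Most of these downstream peaks held coding bases and sequence that also occurs elsewhere in the genome. All 4 of replicate 2 were mostly coding, and in all 4 more than 50% of the 50-base sequences occurred in more than 1 place in the reference (multi-copy sequence, median 90%). Of the 199 downstream peaks of all protein-coding genes in this replicate, 29 were mostly coding and 46 (23.1%) mostly multi-copy. In replicate 3, 9 of the 13 were mostly coding and 6 (46.2%) mostly multi-copy, against 143 and 231 (26%) of the 890 downstream peaks of all protein-coding genes. Some coding bases were held by 12 of the 13 and some multi-copy sequence by 12, with a median of 48.5%, against 28.5% and 33.8% of the 890. Multi-copy sequence was also found at the main start, where it was present in 8 of 28 peaks of replicate 1, 1 of 2 of replicate 2 and 6 of 12 of replicate 3 (28.6%, 50% and 50%, against 12.3%, 23.4% and 19.8% for all protein-coding genes). The part of the repeated coding sequence in the placement of the peaks was not tested, since the reads were not used and the handling of reads that align to several places is not given in the sources used here.

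**Figure D2:**
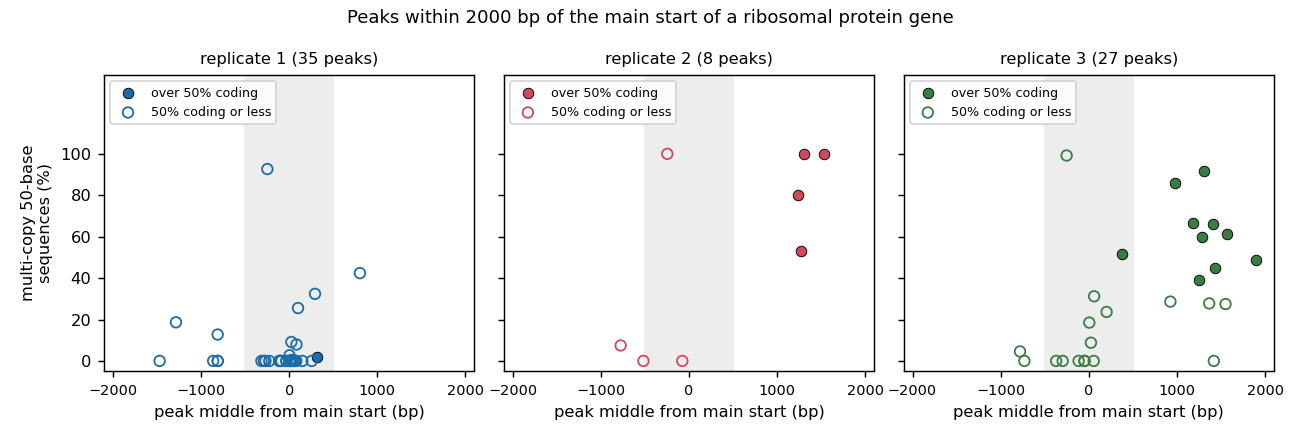
Each point is a peak within 2000 bp of the main start of a ribosomal protein gene, by the distance of its middle from the main start (horizontal axis, bp) and the share of its 50-base sequences that occur more than once in the reference (vertical axis, percent); filled points are peaks over 50% coding, and the grey band marks 500 bp to each side. In replicate 1, 28 of 35 peaks lie in the band, while 4 of 8 peaks of replicate 2 and 13 of 27 of replicate 3 lie downstream.

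Annotated pseudogenes, processed or not, were sorted by symbol only. A peak overlapped 5 of 107 annotated pseudogenes with an Rpl or Rps symbol in replicate 1 (4.67%), 1 in replicate 2 (0.935%) and 8 in replicate 3 (7.48%). For the 5094 pseudogenes without such a symbol the shares were 2.10%, 0.942% and 5.03%. Copies of ribosomal protein genes under another symbol would fall in this second set, and the counts are too small to compare. Of the 55 protein-coding entries with a -ps symbol, 0, 0 and 6 had an overlapping peak.

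Members with a peak in both lists of a pair often had it at different places. In replicates 1 and 3, 14 members had a peak in both, and in 7 of these (50%) the peaks overlapped, against 1736 of 2198 protein-coding genes (79.0%). In replicates 1 and 2 this held for 5 of 7 members, against 94.8% of all genes, and in replicates 2 and 3 for 9 of 9, against 99.0%. Common sites, stretches covered by a peak of every replicate with the middle within 2000 bp of a start, were found near 5 members, 6.17% (2.67 to 13.6) against 4.80% of all protein-coding genes. These 5 genes had 4 sites, since 1 site lay near a pair of neighbouring members.

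Rps19, required for the maturation of the rRNA of the small subunit and the gene most often mutated in Diamond-Blackfan anaemia, had the highest score of all members in each replicate. It scored 361, 96.7 and 217 in replicates 1, 2 and 3, at percentiles 93.8, 59.6 and 94.2. The peak of replicate 1 was 730 bp wide and crossed the start, whereas the common site, chr7:25669003-25669306, had its middle 500.5 bp upstream of the main start. As its sequence shows, the common site held the word ATGCTAAT and 3 SOX words, of which GACAAA and ACAAAG overlap. None of the 3 peaks held multi-copy sequence.

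Rps29, a small zinc-binding protein in the head of the small subunit, had a peak about 250 bp upstream in each replicate (247, 246 and 252.5 bp). The scores were 120, 71.0 and 75.9, at percentiles 70.1, 40.1 and 67.0. Multi-copy sequence made up 92.6%, 100% and 99.2% of the peaks. They covered a small RNA gene that GENCODE lists as misc_RNA, and the peaks at Rps29 cannot be told apart from peaks at this RNA gene.

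Rpl13a, a large-subunit protein that also silences mRNAs of the inflammatory response, had a common site 1665 bp downstream of its nearest annotated start. The site lay 11017 bp downstream of the main start, beyond the annotated end of Rpl13a, and was also near a neighbouring member. The scores there were 70.6, 59.8 and 115, at percentiles 44.6, 25.9 and 85.2. Rpl13a was also the member just inside the window of 2000 bp in replicates 1 (1627.5 bp) and 2 (1714 bp), as was Rplp0 in replicate 3 (1740 bp). Just outside were Rps23 in replicate 1 (2300 bp upstream), Rps2 in replicate 2 (3021.5 bp downstream) and Rpl17 in replicate 3 (2729 bp downstream).

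Rpl27, another large-subunit protein, counted in all 3 replicates but had no common site. The peak of replicate 1 had its middle 11 bp from the main start and a score of 72.3, with no multi-copy sequence. The peaks of replicates 2 and 3 lay 1301 and 1285.5 bp downstream, on exon 3, with scores of 61.0 and 96.2. Multi-copy sequence made up 100% and 59.8% of them. An annotated start of another transcript lay 13 bp from the middle of the replicate 2 peak, and both peaks were also within 2000 bp of the main start.

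**Figure D3:**
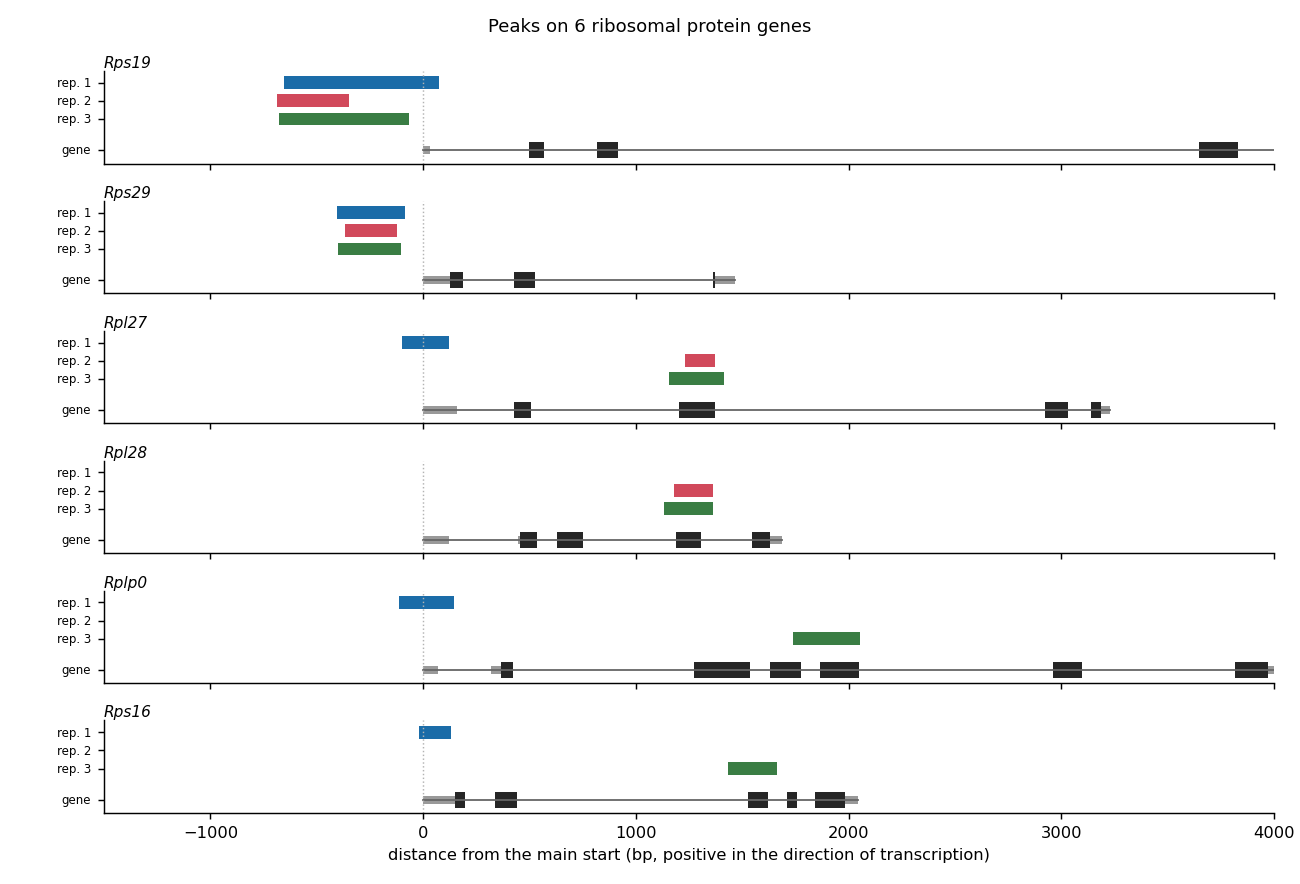
Peaks of replicates 1, 2 and 3 (coloured bars) on 6 ribosomal protein genes by distance from the main start (horizontal axis, bp), with coding exons as tall black boxes, untranslated parts as low grey boxes and introns as lines; genes longer than the axis are cut at 4000 bp. The bars stack up upstream of the start of Rps19 and Rps29, whereas in Rpl27, Rplp0 and Rps16 the bar of replicate 1 lies at the start and that of replicate 3 over exons further downstream.

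Peaks at the start in replicate 1 and downstream in replicate 3 were also seen in some members with a peak in a pair of replicates. Rplp0, the base of the stalk, had a replicate 1 peak 15.5 bp from the main start with a score of 107, and a replicate 3 peak 1896 bp downstream with a score of 97, 71.5% coding and 48.5% multi-copy. Rps16, whose tail reaches the tRNA in the decoding site, had a replicate 1 peak 55.5 bp from the start with a score of 55.0, and a replicate 3 peak 1550 bp downstream with a score of 119. In Rpl10a, part of the mobile stalk at the tRNA exit, the peaks lay 268.5 bp upstream in replicate 1 (score 66.1) and 974 bp downstream in replicate 3 (score 70, 88.2% coding). Each of these genes thus counted in replicates 1 and 3 through peaks that did not overlap.

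Other genes with peaks in replicates 1 and 3 were less uniform. Rpl26, which lies near the exit of the peptide tunnel, had a peak 101 bp upstream in replicate 1 (score 54.6) and one 3318.5 bp downstream of the main start in replicate 3 (score 51.8), with no multi-copy sequence in either. In Rps2, a protein at the entry of the mRNA channel, they lay 314.5 bp upstream (score 52.6) and 2208.5 bp downstream (score 71.5), again without multi-copy sequence. The replicate 3 peak lay beyond the annotated end of Rps2, and its coding bases (78.7% of its length) were not those of Rps2. In Rpl36 the order was the reverse, with the replicate 1 peak 803 bp downstream (score 61.5, 42.4% multi-copy) and the replicate 3 peak 201 bp downstream (score 68.8, 23.7% multi-copy). Rpl7 and Rps18 had overlapping peaks in replicates 1 and 3, in Rpl7 810.5 and 731.5 bp upstream (scores 57.4 and 52.0) and in Rps18 4146.5 and 4165.5 bp downstream of the main start (scores 76.5 and 105). The overlapping peaks of Rps18 lay beyond the annotated end of the gene. Both genes also had a replicate 1 peak at the main start, with a score of 94.3 in Rpl7 and 86.1 in Rps18.

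Replicate 2 shared 3 members with replicate 3 alone (3.70%, against 0.984% of all protein-coding genes), and 1 with replicate 1 alone (1.23% against 0.0984%), counts too small to compare. In Rpl28 the peaks of replicates 2 and 3 lay 1272 and 1248 bp downstream of the main start (scores 53.1 and 108). In Rpl18 they lay 51 and 46 bp upstream of an annotated start and 2563 and 2568 bp downstream of the main start, with no multi-copy sequence and scores of 50.1 and 136.

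Of the ribosomal genes that the symbol rule leaves out, Fau and Gnb2l1 were viewed apart. Fau, which encodes a small-subunit protein fused to a ubiquitin-like one, had 1, 0 and 1 peaks near a start in replicates 1, 2 and 3. Gnb2l1, which encodes the scaffold protein RACK1 on the small subunit, had 2, 1 and 1, each near another annotated start, since the peak nearest to its main start was 6789, 6966 and 6715 bp away.

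The rank of the peaks at ribosomal protein genes was below that of all genes in replicate 2, and in replicate 3 it depended on where the peak lay. The median percentile of the highest peak per member was 50 in replicate 1, 26.4 in replicate 2 and 71.8 in replicate 3, against 53.8, 50.6 and 64.3 for all protein-coding genes with a peak. Within 500 bp of any start the order in replicate 3 was turned around, with 60.4 against 69.8 for all genes, while it was 53.0 against 52.7 in replicate 1 and 28 against 49.1 in replicate 2. Of the replicate 3 peaks, those at the main start of a member had a median percentile of 39.6, against 69.4 for all genes, and those downstream of it 78.5, against 55.6. In replicate 2 no member reached a score of 100, and the highest member score was 96.7 against 2347 for all genes. The highest member scores in replicates 1 and 3, 361 and 217, stood against 3100 in both lists. The 15 genes with a peak only in replicate 1 had their highest peak between percentiles 19.2 and 80.4, and the 10 genes found only in replicate 3 between percentiles 13.3 and 82.9.

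**Figure D4:**
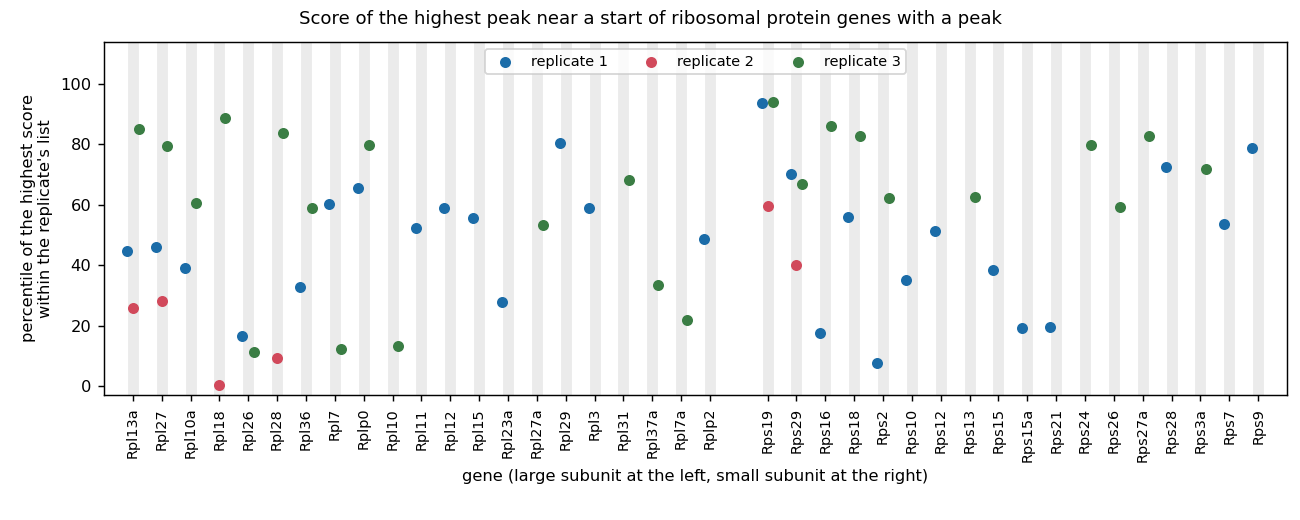
Percentile of the highest score near a start within the list of each replicate (vertical axis) for the ribosomal protein genes with a peak that are reported here (horizontal axis, large subunit at the left and small subunit at the right). Rps19 is the highest in each replicate (93.8, 59.6 and 94.2), and no other gene of replicate 2 lies above its 59.6.

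With stricter lists the excess shrank in replicate 1, and in replicate 3 it rested on 9 members. At a p-value of 1e-10 or less, 7 members had a peak in replicate 1 (8.64% against 8.25% of all genes), 0 in replicate 2 (against 2.32%) and 9 in replicate 3 (11.1% against 5.82%). With the 8096 highest peaks of each list the counts were 10, 10 and 9, which is 12.3%, 12.3% and 11.1% against 9.57%, 6.23% and 6.05%. The interval for the 9 members of replicate 3, 5.96 to 19.8, lay just above the share of all genes at the p-value threshold and held it with equal numbers of peaks. The list of replicate 2 is the same list here, since it is the shortest.

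The promoters of the ribosomal protein genes, from 250 bases before to 50 after the main start, held SOX words at shares whose intervals included the share of all promoters. AACAAA or AACAAT was found in 17 of 81 (21.0%, 13.5 to 31.1), against 25.8% of all protein-coding promoters. GACAAA or GACAAT was found in 18.5% against 19.2%, and the POU octamer (ATGCAAAT or ATGCTAAT) in 0 of 81 against 2.50%. In 500 bases to each side of the main start this no longer held for AACAAA or AACAAT, found in 50.6% (39.95 to 61.2) against 61.3%. The median GC content was 56.3% against 55.7%. For words of other factors, the interval of the members lay above the share of all promoters in 2 of 4, which depended on the window. The word CCGGAAG, bound by ETS factors, was found in 27 of 81 (33.3%, 24.0 to 44.1) against 10.9%, and AAGATGG, bound by YY1, in 13.6% (7.76 to 22.7) against 6.84%. GGGCGG, bound by SP factors, was found in 54.3% (43.5 to 64.7) against 44.7%, and TATAAA in 11.1% against 13.4%. In 500 bases to each side, AAGATGG was found in 27.2% (18.7 to 37.7) against 19.3%, which is inside the interval, and GGGCGG in 87.7% (78.7 to 93.2) against 60.5%, which is outside it.

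Under the peaks near member starts, SOX words were found in a smaller share than under other peaks in each replicate, but replicate 2 had only 9 such peaks. In replicate 2 only the interval for AACAAA or AACAAT lay below the share of other peaks. For GACAAA or GACAAT it was 1 of 9 (1.99 to 43.5) against 31.4%. In the middle 200 bp of peaks near member starts, AACAAA or AACAAT was found in 3 of 36 in replicate 1 (8.33%, 2.87 to 21.8), 0 of 9 in replicate 2 (0 to 29.9) and 5 of 32 in replicate 3 (15.6%, 6.86 to 31.8). At the starts of all protein-coding genes it was found under 22.4%, 32.9% and 27.3% of peaks, and in all other peaks under 40.2%, 46.9% and 39.9%. ACAAAA or ACAAAG or ACAATA or ACAATG was found under 11 of 36 (18.0 to 46.9), 4 of 9 (18.9 to 73.3) and 12 of 32 (22.9 to 54.7) peaks near member starts. The shares at all starts, 40.8%, 55.9% and 47.2%, lay inside these intervals. In other peaks the shares were 60.7%, 69.0% and 58.0%, of which that of replicate 2 lay inside the interval. These words overlap each other, and base composition also differed between the groups. The median GC content was 59.3%, 55.5% and 55.8% near member starts, 61%, 57.5% and 53.5% at all starts, and 49.5%, 48.5% and 46.0% in other peaks. The part of base composition in the word shares was not tested. A word in these letters is a description of the sequence and does not show binding.

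**Figure D5:**
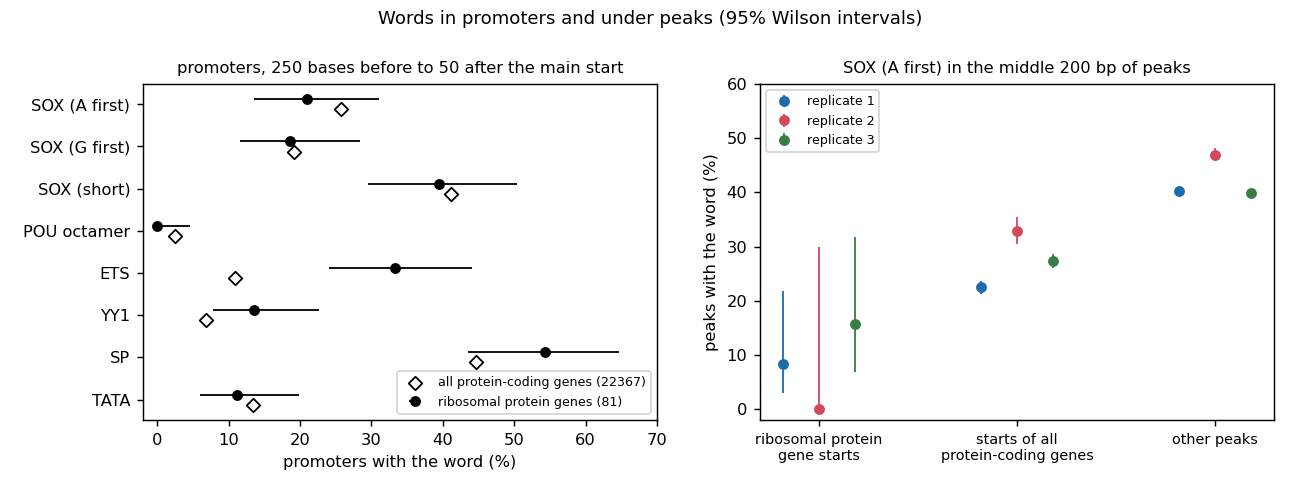
At the left, the share of promoters with each word (horizontal axis, percent) for the 81 ribosomal protein genes, with 95% Wilson intervals, and for all 22367 protein-coding genes; SOX (A first) is AACAAA or AACAAT, SOX (G first) GACAAA or GACAAT, SOX (short) the group of ACAAAA, and the others are the words named in the text. At the right, the share of peaks with SOX (A first) in their middle 200 bp (vertical axis, percent) in replicates 1, 2 and 3, which is lower near ribosomal protein genes (8.33%, 0% and 15.6%) than in other peaks (40.2%, 46.9% and 39.9%).

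The pyrimidine run described for these mRNAs was found at 3 of 81 main starts (3.70% against 2.00% of all genes) but at any annotated start in 25 of 81 (30.9% against 6.17%). With a median of 4 annotated starts against 2, the members had more places at which a run could be found. In replicate 1, 20 members had a peak that covered an annotated start, 24.7% (16.6 to 35.1) against 10.1% of all protein-coding genes. In 5 of the 20 such a start began with C and at least 4 more pyrimidines, 25% (11.2 to 46.9) against 3.62% of the 2263 genes with a covered start. The interval holds the 30.9% of all members, with or without a peak, that had such a run at any annotated start. Starts of 4 of the 5 are shown with 30 bases to each side and the pyrimidine run in capitals. They were chosen because a replicate 1 peak covers them and they begin with such a run, so neither is a result. They are Rpl7 (chr1:16094454-16094513, - strand), Rps18 (chr17:34092579-34092638, - strand), Rps19 (chr7:25669622-25669681, + strand) and Rps9 (chr7:3655610-3655669, + strand).
Rpl7: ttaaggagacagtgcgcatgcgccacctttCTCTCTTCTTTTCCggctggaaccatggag
Rps18: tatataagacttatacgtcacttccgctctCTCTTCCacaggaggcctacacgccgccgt
Rps19: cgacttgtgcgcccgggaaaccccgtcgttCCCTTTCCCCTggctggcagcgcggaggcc
Rps9: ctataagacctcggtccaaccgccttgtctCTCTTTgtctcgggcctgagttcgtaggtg
The pyrimidine run was 14 bases long in Rpl7, 7 in Rps18, 11 in Rps19 and 6 in Rps9. The replicate 1 peaks over these starts had scores of 94.3, 86.1, 361 and 156.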

How the data were processed

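Reads were aligned by the authors to mm9 with Bowtie 1.0.0, per the labels, and peaks were called with MACS against the input. The unit of the deposited lists is a score, −log10 of the MACS p-value multiplied by 10, without normalization between replicates, and no reads were counted here. Genes, transcripts and pseudogenes came from GENCODE vM1 on NCBIM37, the assembly of mm9. Positions are counted from 1. Starts of coding and non-coding transcripts were used, and distance was taken to the middle of the peak. Multi-copy sequence was measured by counting each 50-base sequence of a peak in the whole reference on both strands. The members, lists and words were chosen with earlier results of these data known. Members named are those with a peak in at least 2 replicates, those next to the window limit, and Fau and Gnb2l1. Rps9 and the paralogs ending in l fall outside this rule and were named after their values were seen. Some genes and sequences that this rule would name are counted but not reported here. The alternatives were other windows, the nearest base, the gene record, stricter or equal lists, no multi-copy peaks, isolated genes, common stretches and each replicate left out. The main start, the count of pseudogenes and the pyrimidine run at any start were added after seeing the data. Tested on simulated data, 200 of 200 planted peaks were placed right. Python 3.11.15, numpy 2.4.6, pandas 2.3.3, numba 0.67.0 and matplotlib 3.10.9 were used.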

Additional observations from a re-analysis of the deposited data

How the results depend on the processing

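Of 48 alternatives to the 4 counts of members, 36 stayed within 1.5 times the reported count, and the share of members stayed above that of all genes in 43. At a p-value of 1e-10 or less the counts in replicates 1, 2, 3 and all 3 were 7, 0, 9 and 0. With equal numbers of peaks they were 10 in replicate 1, 9 in replicate 3 and 1 in all 3. Within 500 bp of the main start they were 2 in replicate 2, 10 in replicate 3 and 2 in all 3. Without mostly multi-copy peaks replicate 2 had 5 (6.17% against 5.35% of all genes). With 1 replicate left out, 7 to 14 members had a peak in both others, the most (17.3% against 9.83%) without replicate 2. The 5 settings in which the share of members was not above that of all genes were the p-value of 1e-10 in replicate 2 and in all 3, equal numbers in all 3, and 500 bp of the main start in replicate 2 and in all 3. The causes were not tested. No paired analysis was possible because the replicates form 1 group. Depth is unknown, and 81 genes limit the precision of each share.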
